A study of Mus musculus with 8 samples.

Results

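The comparison described is the melatonin difference in RAW264.7 macrophages at 5 h of LPS, taken as the array of melatonin-pretreated cells minus the array of cells without melatonin. RAW264.7 is an established mouse macrophage line. The tested array held RNA of cells given 1 mM melatonin for 1 h and then 100 ng/ml LPS (Escherichia coli O55:B5) for 5 h, and the other array held RNA of cells given the same LPS for 5 h with no melatonin before it. These are 2 of the 8 arrays of the study, which sampled each arm at 0, 1, 3 and 5 h of LPS with 1 array per condition. Genes entered where 1 or both of the 2 arrays flagged the probe as well above background, which kept 14878 of the 27006 genes with a symbol on the array. Of these, 13315 were well above background on both arrays, 558 on the melatonin array only and 1005 on the array without melatonin only.

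With 1 array a side, the differences at 5 h are values without a test. Levels are log2 signals relative to the 75th percentile of the same array, so 0 is that percentile. A gene measured on 1 side only is given at its bound, as "at least N-fold". The melatonin arm lay in row 2 of the slide and the other arm in row 1, so melatonin and slide row cannot be told apart. The 75th percentile of the signal was 718.7 on the melatonin array and 659.1 on the other. Replicate spots of a probe differed little: over 279 probes with 10 spots each, the SD of the log2 difference had a median of 0.038. That spread covers spots of 1 hybridisation and holds no spread between cultures. All 11 measured macrophage markers, such as Lyz2 (8.45 with melatonin and 8.68 without) and Cd68 (5.81 and 6.37), passed that filter on each array. None of the 6 epithelial markers was measured, and of 7 fibroblast markers 1 was (Col1a2, -3.68 with melatonin and -2.56 without). Of the 9 T cell markers 5 were measured, among them Lck (1.85 and 2.52). So were 3 of 6 B cell, 3 of 7 neutrophil and 4 of 7 dendritic cell markers, among the last Siglech (7.30 and 7.54). The part of other cells in the differences was not tested.

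LPS is detected by Toll-like receptor 4, which signals through NF-kB and MAP kinases to cytokine and chemokine genes and, through interferon beta, to a later set of interferon-stimulated genes. In macrophages LPS also lowers many transcripts of the resting state. Melatonin is a hormone of the pineal gland, known for anti-inflammatory and antioxidant effects in cultured macrophages at doses far above its level in blood.

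At 5 h of LPS, 940 genes were at least 2-fold higher with melatonin (6.32% of genes) and 561 at least 2-fold lower (3.77%). At least 4-fold differences were found for 146 genes in the higher direction and 122 in the lower. The median difference was -0.041 log2, with 5% of genes below -0.87 and 5% above 1.12. Of the 1501 genes past 2-fold, 462 were measured on 1 side only and 233 of those were well above background on 1 of the 8 arrays of the study. After normexp background correction, which starts from the mean and local background signals and adds an offset of 50, 448 genes were at least 2-fold higher and 348 at least 2-fold lower.

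**Figure D1:**
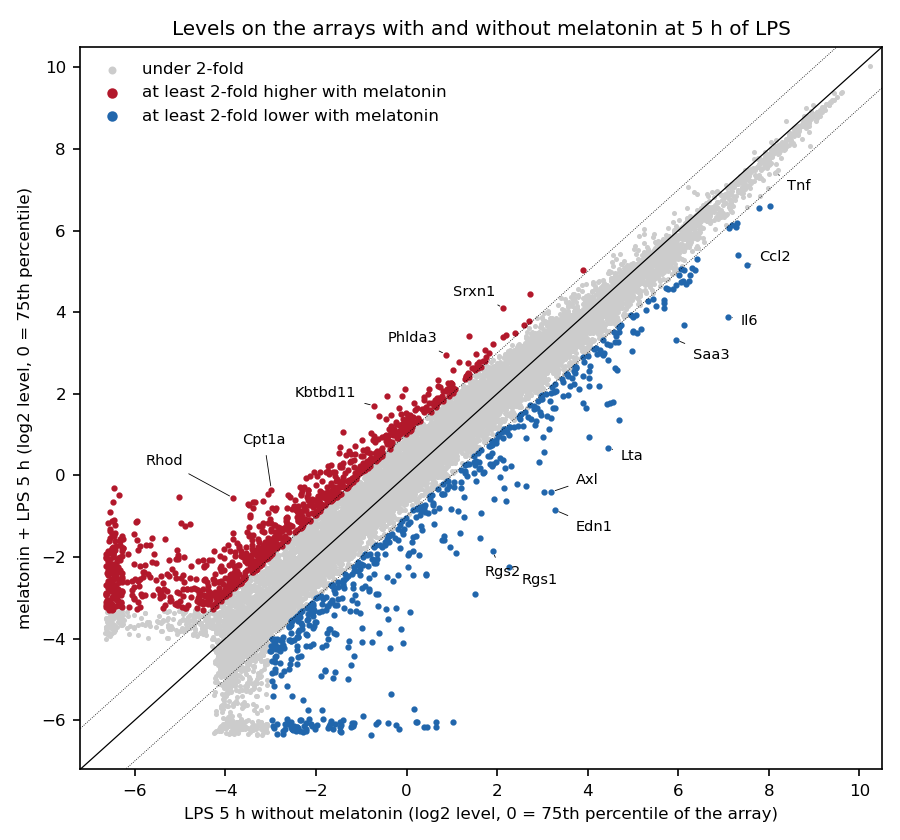
Log2 level of each gene on the melatonin array (vertical axis) against the array without melatonin (horizontal axis) at 5 h of LPS, 1 array each, with 0 at the 75th percentile of each array. The solid line marks equal levels and the dotted lines 2-fold; red points are the 940 genes at least 2-fold higher with melatonin, blue points the 561 at least 2-fold lower, and grey points beyond the dotted lines at the low end have a bound under 2-fold.

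The largest decreases among genes measured on both arrays included regulators of G protein signalling, secreted mediators and receptors. Rgs1, a GTPase-activating protein that shortens signalling by G protein-coupled receptors, had a level of -2.26 with melatonin against 2.26 without, 22.9-fold lower. Its probe lies at chr1:146091962-146092021 (mm9, the build of the files). Rgs2, of the same family, read -1.86 with melatonin and 1.90 without (13.6-fold lower). The 11 measured members of the RGS and G protein list had a median of -0.24, and no other member was at least 2-fold lower. Rgs10 was the highest of them, at 2.48 with melatonin (1.85-fold higher).

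Edn1 encodes the vasoconstrictor peptide endothelin-1. Its level was -0.85 with melatonin and 3.28 without, 17.5-fold lower, at a probe at chr13:42403101-42403160 (mm9). Lta, which encodes the TNF-related cytokine lymphotoxin alpha, had levels of 0.67 with melatonin and 4.45 without (13.7-fold lower). Axl, a receptor tyrosine kinase that binds Gas6 and takes part in clearance of dying cells, read -0.41 with melatonin and 3.20 without (12.1-fold lower), a difference of -3.60 that was -2.48 as the mean over its probes. Fpr2, a formyl peptide receptor that detects bacterial peptides, read -0.41 and 3.04 (10.9-fold lower). Its neighbour Fpr1 was not well above background with melatonin and was at least 18.2-fold lower. Tnc, the matrix glycoprotein tenascin C, was 10.7-fold lower (-3.35 with melatonin and 0.07 without), and Lad1, an anchoring filament protein of basement membranes, 8.89-fold lower. As means over probes, the differences were -4.14 for Fpr2 and -2.41 for Lad1. With normexp, Rgs1 differed by -3.87 and Tnc by -2.46. All of these genes also had differences below 0 at every other LPS time at which they were measured, except Lta at 0 h (0.02).

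The cytokine list was lower with melatonin in 18 of 21 measured members, 12 of them by at least 2-fold, with a median of -1.21 against -0.041 over all genes. No member was at least 2-fold higher. Il6, the acute-phase cytokine interleukin-6, had a level of 3.89 with melatonin and 7.10 without, 9.28-fold lower. Il1rn, which encodes the antagonist of the interleukin-1 receptor, was 10.1-fold lower (1.36 with melatonin and 4.70 without). The agonists of the same receptor were lower by less: Il1a read 2.57 and 4.65 (4.23-fold lower) and Il1b 6.61 and 8.03 (2.66-fold lower).

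The colony-stimulating factors Csf2 and Csf3, which drive growth of granulocytes and macrophages, were 6.63-fold and 5.46-fold lower. Ifnb1, the type I interferon made in response to LPS, read -0.20 with melatonin and 2.44 without (6.24-fold lower). Tnf, an early product of LPS signalling, differed far less, at 7.42 with melatonin and 8.13 without (1.64-fold lower). Csf1 and Il23a were slightly higher, with differences of 0.10 and 0.23, and Il15 read 1.90 on both arrays. Il12b was well above background without melatonin only and read -4.01 with melatonin and -4.02 without.

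Chemokines differed by amounts as varied. Of 17 measured members 16 were lower with melatonin, 8 of them by at least 2-fold, with a median of -0.92. The monocyte attractants of the Ccl2 cluster differed most: Ccl2 had levels of 5.15 with melatonin and 7.51 without (5.14-fold lower), Ccl7 of -0.62 and 2.19, and Ccl12 was at least 15.4-fold lower. Cxcl2, which attracts neutrophils, read 5.41 and 7.31 (3.73-fold lower). The most strongly detected chemokines were within 2-fold: Ccl5 read 8.34 with melatonin and 8.65 without, Ccl4 8.69 and 9.05, Ccl3 8.65 and 8.89, and Cxcl10 was 1.54-fold lower.

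Other products of activated macrophages were lower by varied amounts. Saa3, an acute-phase apolipoprotein, read 3.32 with melatonin and 5.95 without (6.20-fold lower), and 5 of the 13 acute-phase and antimicrobial genes were at least 2-fold lower. Ptgs2, the inducible cyclooxygenase, was 2.06-fold lower (6.14 and 7.19). Nos2, the inducible nitric oxide synthase, was 1.62-fold lower (4.85 and 5.55), and Acod1, which makes itaconate, 1.14-fold lower (8.90 and 9.10). Slc7a2, an arginine transporter, differed more, at -1.59 with melatonin and 0.83 without (5.33-fold lower). Among NF-kB subunits and feedback genes the deubiquitinase gene Tnfaip3 was 2.61-fold lower (2.67 and 4.06), while Nfkbia, the inhibitor IkB alpha, was 1.28-fold lower (7.97 and 8.33), and 2 of 19 members were past 2-fold. Of 22 immediate early factors 4 were at least 2-fold lower, among them Nr4a1 (1.75 with melatonin and 4.43 without), Myc (-0.92 and 1.64) and Klf6 (2.84 and 4.46), and 1 was at least 2-fold higher, Klf4 (-2.19 and -3.72).

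**Figure D2:**
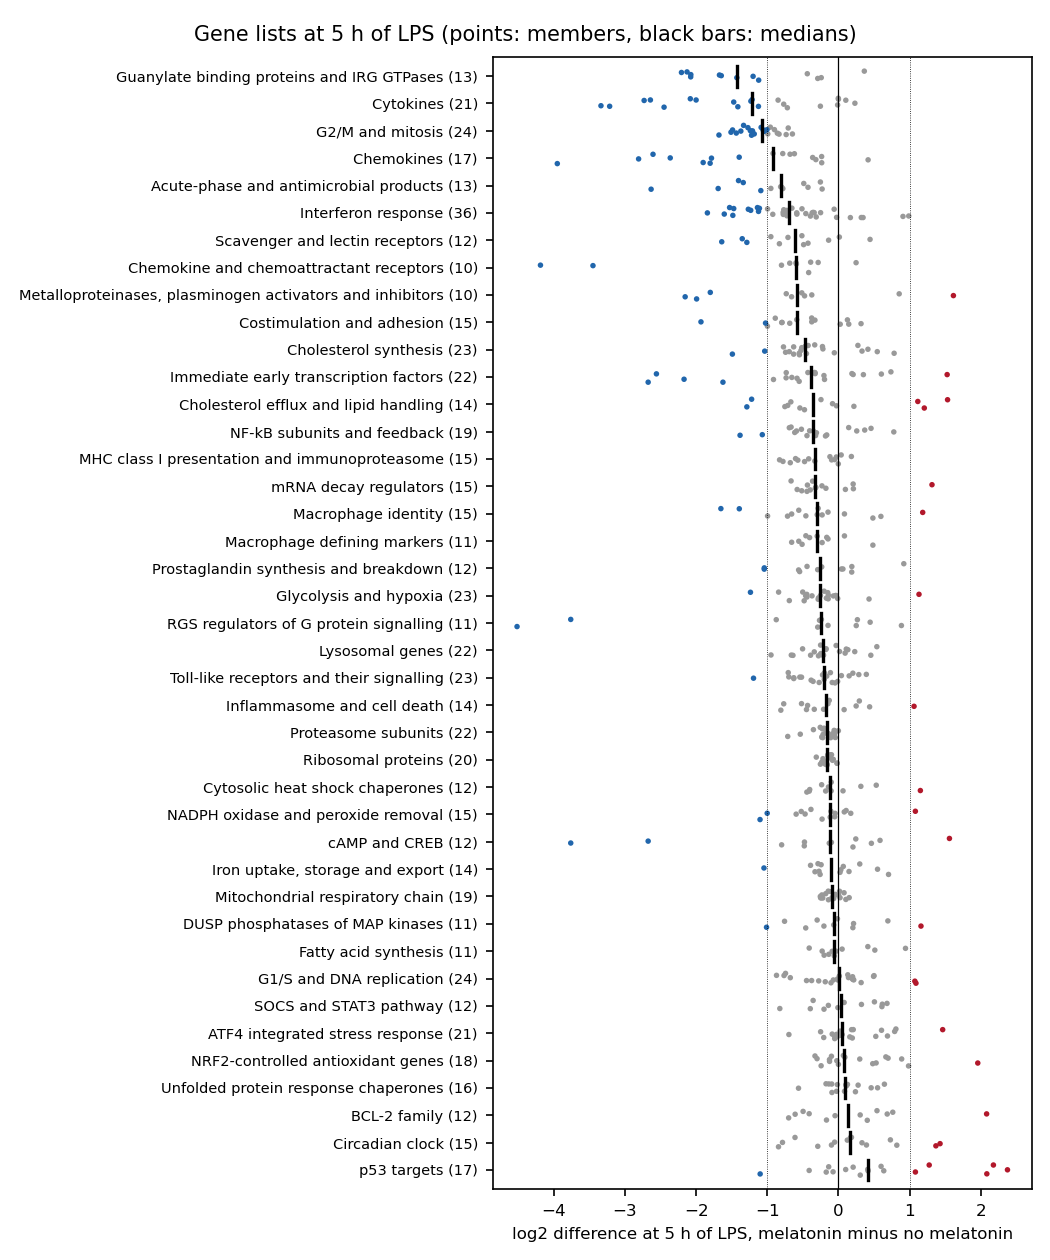
Log2 difference at 5 h of LPS (melatonin minus no melatonin, horizontal axis) of the measured members of each gene list with at least 10 measured members, with 1 point a gene and the number of members in brackets. Black bars are list medians, blue points are at least 2-fold lower and red points at least 2-fold higher; the guanylate binding proteins, cytokines and G2/M genes have medians below -1, and p53 targets have the highest median at 0.41.

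Interferon-stimulated genes were also lower, with the larger differences in the GTPase families. Of 13 measured guanylate binding proteins and IRG GTPases, which attack vacuoles of intracellular microbes, 9 were at least 2-fold lower, with a median of -1.43. Gbp3 had levels of 1.76 with melatonin and 3.89 without, and Gbp2 of 0.22 and 1.90. Irgm2 was the highest member, at 2.84 with melatonin and 2.47 without. Of 36 further interferon response genes, 10 were at least 2-fold lower and none at least 2-fold higher, with a median of -0.69. Oasl2, an antiviral protein of the oligoadenylate synthetase family, read 2.20 and 4.04 (3.58-fold lower), Zbp1, a sensor of Z-form nucleic acid, 1.96 and 3.56, and Ifit3, which binds viral RNA complexes, 2.55 and 4.02. Other members were close to level or higher: Rsad2 (viperin) read 6.04 with melatonin and 6.10 without, a difference that was above 0 (0.13) with quantile normalization, Mx2 was 1.27-fold higher, and Irf1, an interferon regulatory factor, 1.88 and 0.98. MHC class I genes had a median of -0.33 and no member past 2-fold.

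Some promoters of these groups hold a motif of the regulators named above, and those shown were chosen because they hold one. Some promoters of list members looked at for printing held no match to the motif of their group in the 250 bases before the start. These were those of Oasl2, Ifi47, Isg20, Il1rn, Plk1, Ccnb1 and Cenpf, and a Gbp3 promoter other than the one shown. The 50 bases after the start, which the shares given for each list include, were not part of that look. Sequences are from RefSeq (GRCm38.p6), 250 bases before the transcript start, on the strand of the gene. The interferon-stimulated response element was searched as GAAA, any 2 bases and GAAA on both strands in windows of 250 bases before to 50 after each start. It was found in 8 of 9 promoters of the GTPase list (88.9%) and in 14 of 33 of the interferon response list (42.4%). Its share was 3.44% of all 32851 promoters and 3.24% of those of genes measured at 5 h. Promoters were found for 8 of the 13 GTPases and 27 of the 36 interferon response genes. The share was 8.30% over promoters of all genes at least 2-fold lower and 1.95% over those at least 2-fold higher. Gbp3 also has a promoter at chr3:142560106-142560355 (plus strand) with no match in the 250 bases before the start. Its promoter at chr3:142559794-142560043 (plus strand) and the Ifit3 promoter (chr19:34583279-34583528, plus strand) follow, with matches in capitals, which overlap in Gbp3.
Gbp3: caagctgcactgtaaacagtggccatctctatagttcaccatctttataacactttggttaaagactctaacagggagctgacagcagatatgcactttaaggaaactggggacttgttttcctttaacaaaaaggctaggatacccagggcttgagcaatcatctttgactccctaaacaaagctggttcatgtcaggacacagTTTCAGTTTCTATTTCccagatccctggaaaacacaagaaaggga
Ifit3: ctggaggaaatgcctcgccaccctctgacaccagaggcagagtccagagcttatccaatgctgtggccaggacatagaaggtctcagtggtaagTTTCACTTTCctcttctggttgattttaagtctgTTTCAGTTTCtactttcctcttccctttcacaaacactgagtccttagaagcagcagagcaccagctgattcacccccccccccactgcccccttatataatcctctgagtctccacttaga

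The Il6 promoter (chr5:30012864-30013113, plus strand) holds 1 match to the NF-kB consensus, in capitals. That consensus was found in 33.3% of 18 cytokine promoters and 36.4% of 11 chemokine promoters. Its share was 8.46% of all promoters and 10.1% of those of genes measured at 5 h. Over genes at least 2-fold lower it was 12.7%, and over genes at least 2-fold higher 9.64%.
Il6: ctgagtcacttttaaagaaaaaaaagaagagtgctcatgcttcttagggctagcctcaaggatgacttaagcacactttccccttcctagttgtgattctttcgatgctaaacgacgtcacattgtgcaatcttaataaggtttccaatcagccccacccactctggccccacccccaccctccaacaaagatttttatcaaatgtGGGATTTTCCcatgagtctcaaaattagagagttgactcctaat
A match describes the letters in these windows and is not a measured binding site.

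All 24 measured genes of the G2/M and mitosis list were lower with melatonin, 16 by at least 2-fold, with a median of -1.07 and a range of -1.68 to -0.65. Ube2c, the ubiquitin-conjugating enzyme of the anaphase-promoting complex, had levels of 2.12 with melatonin and 3.80 without (3.20-fold lower). Plk1, a mitotic kinase, read 1.94 and 3.45, Ccnb1, cyclin B1, 1.48 and 2.97, and Cdc20, an activator of the anaphase-promoting complex, 2.96 and 4.33. Cdc25c, a phosphatase of the mitotic entry step, differed least, at 0.24 and 0.89. The 24 genes of the G1/S and DNA replication list did not share this: 12 were higher and 12 lower, with a median of 0.00. Ccne1, cyclin E1, was 2.13-fold higher (2.41 with melatonin and 1.32 without) and E2f2, a transcription factor of the S phase entry step, read 0.14 and -0.94. Tyms, thymidylate synthase, was 1.83-fold lower (2.87 and 3.74). In bulk RNA, fewer cells in a phase and less RNA per cell cannot be told apart.

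The cell cycle genes homology region (CHR), a promoter element of late cell cycle genes, was searched as TTTGAA on both strands of the same windows. It was found in 15 of 20 promoters of the G2/M list (75%) and 3 of 20 of the G1/S list (15%). Its share was 17.9% of all promoters and 13.5% of those of genes measured at 5 h. Over genes at least 2-fold lower it was 20.7%, and over genes at least 2-fold higher 14.7%. Promoters were found for 19 of the 24 G2/M genes. The Ube2c promoter (chr2:164769679-164769928, plus strand) and the Cdc20 promoter (chr4:118437344-118437593, minus strand) are shown with the match in capitals.
Ube2c: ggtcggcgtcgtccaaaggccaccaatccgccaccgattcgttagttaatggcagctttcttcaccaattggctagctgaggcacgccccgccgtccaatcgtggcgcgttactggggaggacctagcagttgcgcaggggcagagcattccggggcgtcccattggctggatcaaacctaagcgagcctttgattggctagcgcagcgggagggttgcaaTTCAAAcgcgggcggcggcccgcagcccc
Cdc20: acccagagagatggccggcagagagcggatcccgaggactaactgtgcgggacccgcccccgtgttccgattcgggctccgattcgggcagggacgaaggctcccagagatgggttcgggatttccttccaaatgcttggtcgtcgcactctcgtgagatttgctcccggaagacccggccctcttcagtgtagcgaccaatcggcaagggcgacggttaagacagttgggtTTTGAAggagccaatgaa

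Most of the genes with the largest increases had levels below 0 without melatonin. Rhod, a small GTPase of endosome movement, had the largest increase among genes measured on both arrays, with -0.55 with melatonin and -3.83 without (9.67-fold higher; probe at chr19:4425948-4426007, mm9). Its difference of 3.27 was 2.01 as the mean over its probes and 2.21 with normexp. Cpt1a, which carries fatty acids into mitochondria for oxidation, read -0.36 with melatonin and -2.99 without (6.17-fold higher). Crot, a peroxisomal carnitine acyltransferase, read -1.03 and -3.46 (5.38-fold higher). Suox, the mitochondrial sulfite oxidase, was 5.81-fold higher, Dnajc12, a J-domain co-chaperone, 6.49-fold, Aph1c, a gamma-secretase subunit, 6.61-fold, and Dusp28, an atypical phosphatase, 6.74-fold. Kbtbd11 stood at a higher level, with 1.71 with melatonin and -0.71 without (5.35-fold higher). Tmem37, Kank3 and Hdhd3 were 6.94-fold, 6.02-fold and 5.52-fold higher. Olfr1378, an olfactory receptor gene, was 5.56-fold higher but well above background on 3 of the 8 arrays. With normexp these increases were smaller, at 1.95 for Cpt1a, 1.46 for Crot and 1.71 for Suox. Apart from Olfr1378, which was not measured there, all these genes were lower at 3 h of LPS than at 0 h without melatonin. The change was -3.61 for Rhod, -3.03 for Cpt1a and -0.75 for Dnajc12. Within the melatonin arm, Cpt1a read 1.99 at 0 h and -0.36 at 5 h, Kbtbd11 5.68 and 1.71, and Hdhd3 0.94 and 1.07.

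Among the pathway lists, p53 targets had the highest median at 5 h, at 0.41. Of 17 members 5 were at least 2-fold higher and 1 at least 2-fold lower. The median of the same list was 0.83 at 0 h, 0.53 at 1 h and 0.39 at 3 h, so it was not particular to 5 h. Phlda3, an inhibitor of AKT, read 2.96 with melatonin and 0.88 without, and Gadd45g, a growth arrest gene, 0.71 and -1.47. Cdkn1a, the cyclin-dependent kinase inhibitor p21, read 5.18 and 4.77. Trp53inp1, a p53-induced stress protein, was at least 5.19-fold higher, with a level of -1.92 with melatonin and not well above background without. A second probe of Trp53inp1 that was measured on both arrays differed by only 0.23. The one at least 2-fold lower was a probe named Fas (0.79 with melatonin and 1.89 without). The files describe its target as a Fas mRNA with a retrotransposon sequence and place it on chromosome 4, while RefSeq places the death receptor gene Fas on chromosome 19, so that this probe measures Fas is uncertain. Another probe assigned to Fas, measured on both arrays, differed by -1.61, the same way.

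Single members of other lists were higher while the lists were not. Srxn1, sulfiredoxin, which repairs oxidised peroxiredoxins, read 4.10 with melatonin and 2.14 without (3.88-fold higher). It was the 1 member of 18 NRF2-controlled genes past 2-fold, and Hmox1, haem oxygenase 1, read 4.17 and 4.42. Of 15 clock genes Tef (1.66 and 0.23) and Nr1d2 (-2.07 and -3.44) were at least 2-fold higher. Bmf, a pro-apoptotic BCL-2 family gene, was 4.23-fold higher at the probe used, while another of its probes had a difference of -0.35, the other way. Ribosomal protein genes had a median of -0.16 and ranged from -0.31 to -0.02.

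The differences at 5 h were set against the arrays at 0, 1 and 3 h, which share no array with them. Of the genes measured at each time, 1.27% were at least 2-fold higher and 1.14% at least 2-fold lower at 0 h, 2.39% and 2.05% at 1 h, and 5.35% and 4.33% at 3 h. The SD of the difference was 0.40 at 0 h, 0.48 at 1 h, 0.64 at 3 h and 0.66 at 5 h. Across genes, the 5 h difference correlated with that at 0 h at r = 0.549 (n = 13041 genes), at 1 h at 0.639 (13128) and at 3 h at 0.820 (13193). Genes are not independent replicates, and the arrays of an arm shared a slide row. Of the genes at least 2-fold higher at 5 h and measured at 3 h, 446 were so at 3 h, 59.9% of the 5 h genes and 58.6% of the 3 h genes. In the lower direction 301 genes were shared, 62.4% of the 5 h genes and 48.9% of the 3 h genes. At all 4 times, 58 genes were at least 2-fold higher and 45 at least 2-fold lower.

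The 0, 1 and 3 h arrays also gave a test of melatonin that does not use the 5 h arrays. The limma model over 15359 genes (LPS time, melatonin, and a further melatonin term at 5 h, 2 residual degrees of freedom) called 1764 genes higher (11.5%) and 2383 lower (15.5%) at a Benjamini-Hochberg adjusted p under 0.05. The balance turned with the scaling, to 2167 higher and 1449 lower with quantile normalization and 2175 higher and 1466 lower in the deposited table. Its p-values measure the spread of the melatonin difference between these times, and with 1 array a condition that is not a spread between cultures. Of the genes at least 2-fold higher at 5 h, 384 of 780 in the model were called higher and 0 lower. Of those at least 2-fold lower, 182 of 497 were called lower and 3 higher. Without the 1 h arrays the model called 0 genes in either direction, and without the 0 h arrays 416 higher and 568 lower.

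Ccl2 illustrates a difference of similar size at every time. Its level was -1.27, 0.61, 3.29 and 5.15 at 0, 1, 3 and 5 h with melatonin, against 0.81, 2.50, 6.33 and 7.51 without. Over 0, 1 and 3 h its melatonin difference was -2.34 ± 0.24 (SE, limma adjusted p = 0.014), and all 4 melatonin arrays lay below the array of the same time. Il1rn (-2.35 ± 0.35, limma adjusted p = 0.020), Axl (-1.84 ± 0.43, limma adjusted p = 0.042) and Tnc (-2.42 ± 0.52, limma adjusted p = 0.035) fell too. Over the main and alternative settings Axl was called in 6 of 10 and Tnc in 4 of 9. In the higher direction the model called Rhod (2.08 ± 0.28, limma adjusted p = 0.018), Kank3 (1.89 ± 0.18, limma adjusted p = 0.013), Suox (1.88 ± 0.32, limma adjusted p = 0.025), Cpt1a (1.46 ± 0.34, limma adjusted p = 0.042) and Phlda3 (2.02 ± 0.20, limma adjusted p = 0.013). Cpt1a was called in 6 of 10 settings and Suox in 7 of 10. Il6 was not called, with levels of -6.55, -5.91, 1.58 and 3.89 with melatonin and -6.95, -2.40, 5.83 and 7.10 without (-2.45 ± 0.97, limma adjusted p = 0.122). At 0 h it was not well above background in either arm. Rgs1 (limma adjusted p = 0.0615), Edn1 (0.117) and Lta (0.104) were not called either, and their differences were larger at 3 h than at 0 or 1 h where measured.

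**Figure D3:**
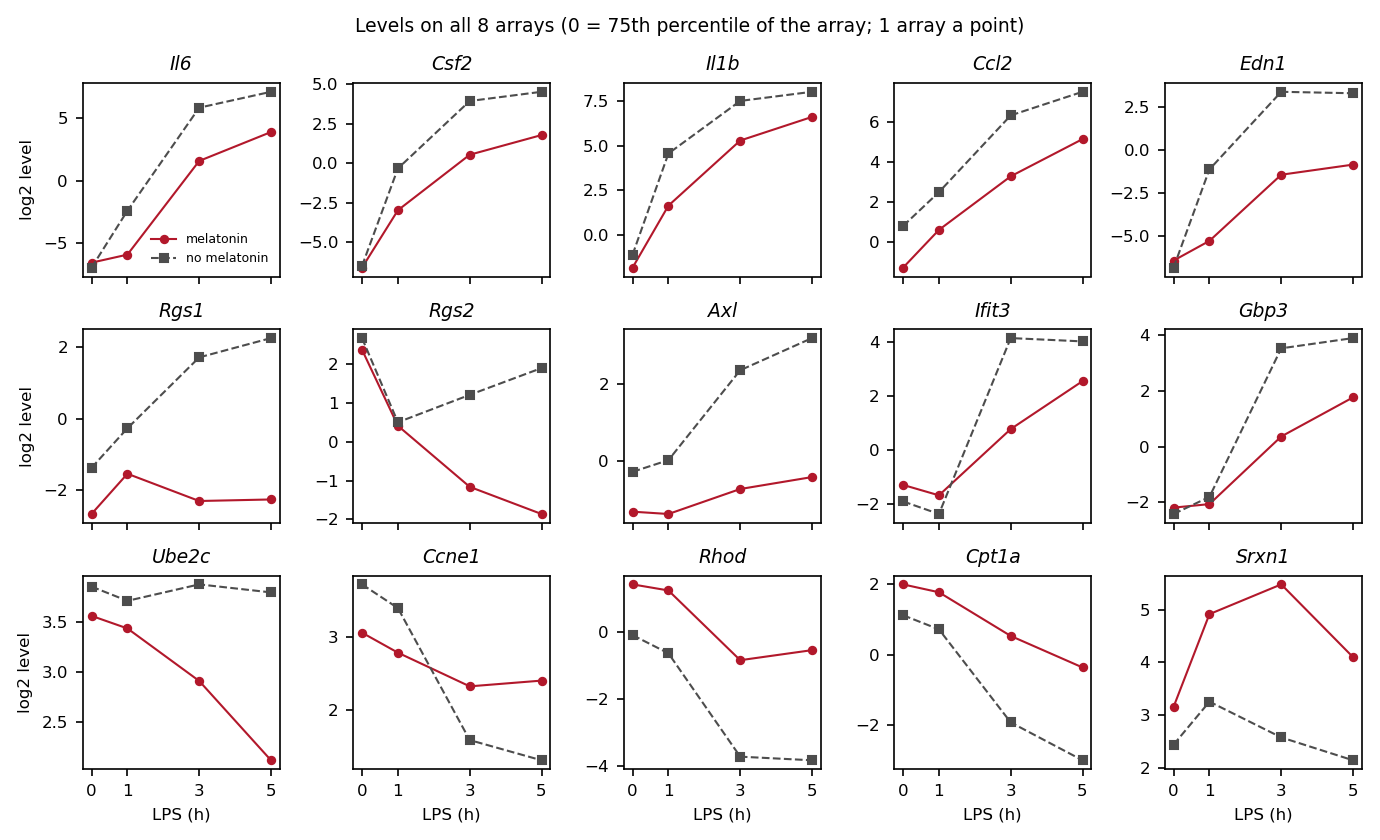
Log2 levels (vertical axes, 0 at the 75th percentile of the array) of 15 genes named in the text on all 8 arrays against hours of LPS, with melatonin in red circles and without in grey squares, 1 array a point. Il6, Csf2 and Edn1 part from 1 h and Rgs2 and Gbp3 at 3 h, Ube2c is lowest with melatonin at 5 h, and Rhod and Cpt1a are higher with melatonin at every time.

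Of the genes that the model called over 0, 1 and 3 h, lower ones made up 8 of 16 chemokines, 7 of 21 cytokines, 14 of 24 G2/M genes, 13 of 24 G1/S genes and 0 of 36 interferon response genes, against 15.5% of all genes. Shares of calls as large were found in lists of general cell functions, so such shares are not particular to these groups. Lower calls made up 15 of 22 proteasome subunits, 15 of 23 glycolysis and hypoxia genes and 11 of 20 ribosomal proteins. The differences of these 3 lists were small, with medians of -0.16, -0.25 and -0.16 at 5 h. With quantile normalization those medians were 0.02, -0.10 and -0.002. The cytokine, chemokine and G2/M medians at 5 h were then -0.98, -0.77 and -0.98. Each list had its own course. The median difference of the cytokines was -0.34 at 0 h, -0.87 at 1 h, -1.71 at 3 h and -1.21 at 5 h, over 12, 20, 21 and 21 measured members. That of the interferon response list was 0.13, 0.06, -1.65 and -0.69, with 29 of 36 members at least 2-fold lower at 3 h and 10 at 5 h. Rsad2 differed by -2.39 at 3 h and -0.06 at 5 h, and Irf1 by -1.74 at 3 h and 0.91 at 5 h. For Rsad2 the level was 4.74 at 3 h and 6.04 at 5 h with melatonin, and 7.12 at 3 h and 6.10 at 5 h without, so the gap closed from both sides. For the G2/M list the median was -0.30, -0.31, -0.74 and -1.07, and for the G1/S list -0.55, -0.51, -0.25 and 0.00.

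**Figure D4:**
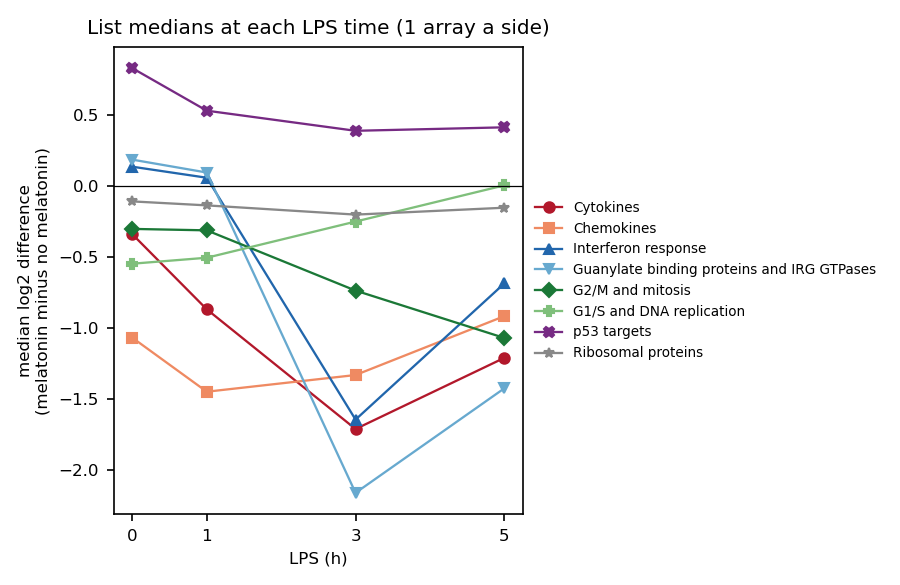
Median log2 difference (melatonin minus no melatonin, vertical axis) of the measured members of 8 gene lists against hours of LPS, 1 array a side at each time. The GTPase list has 8, 8, 13 and 13 measured members at the 4 times and the cytokines 12, 20, 21 and 21. Interferon and GTPase lists lie near 0 at 0 and 1 h and lowest at 3 h, the G2/M median is lowest at 5 h (-1.07), and the G1/S median reaches 0.00 at 5 h.

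Whether the 5 h difference departs from the mean of the other times was tested by the further term of the limma model. It called 0 of 15359 genes (lowest adjusted p = 0.492), while the unadjusted p was under 0.05 for 1244 genes, with 768 given by chance. Those 1244 held 16 of 24 G2/M genes, against 8.1% of all genes. Without the 3 h arrays, which leaves 1 residual degree of freedom, limma called 520 genes, 320 higher (2.08%) and 200 lower (1.3%), with a lowest adjusted p of 0.04. The lower ones held 16 of 24 G2/M genes and 14 of 36 interferon response genes, and the higher ones 7 of 24 G1/S genes. That setting sets 5 h against 0 and 1 h only and takes its spread from those 2 times. Nr4a1, an orphan nuclear receptor, differed by 0.27 at 0 h, 0.34 at 1 h, -2.66 at 3 h and -2.67 at 5 h (term -2.98 ± 0.10, limma adjusted p = 0.04 without the 3 h arrays and 0.679 with them).

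The 5 h difference was larger in genes that LPS raised or lowered than in the others. LPS response was taken from the 3 h and 0 h arrays without melatonin, which the 5 h difference does not use. Of 483 genes raised at least 4-fold by LPS at 3 h, 163 were at least 2-fold lower with melatonin at 5 h (33.7%) and 7 at least 2-fold higher, with a median of -0.69. Of 314 genes lowered at least 4-fold, 158 were at least 2-fold higher (50.3%) and 7 at least 2-fold lower, with a median of 1.04. Of 11705 genes that LPS moved by under 2-fold, 2.57% were at least 2-fold higher and 1.76% at least 2-fold lower, with a median of -0.06.

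The classes were chosen on the arm without melatonin, so a smaller move in the other arm is in part built in. Chosen instead on the melatonin arm (3 h against 0 h), the 102 genes lowered at least 4-fold had a median of 0.46 and the 285 raised at least 4-fold a median of -0.43. For the classes of the arm without melatonin, the raised genes had a median level of -1.69, -0.62, 0.65 and 1.21 at 0, 1, 3 and 5 h with melatonin, and -1.45, -0.11, 2.01 and 1.97 without. The lowered genes had a median of 0.75, 0.36, -0.90 and -1.14 with melatonin, and 0.65, -0.08, -2.17 and -2.18 without. Over 12947 genes measured on all 8 arrays, the melatonin array at 5 h differed from the arrays without melatonin at 0, 1, 3 and 5 h by an SD of 0.82, 0.66, 0.54 and 0.55 log2. It was thus about as close to the 3 h array as to the 5 h array without melatonin. The melatonin array at 3 h was closest to the 1 h array (0.57) and next to the 3 h array (0.59).

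**Figure D5:**
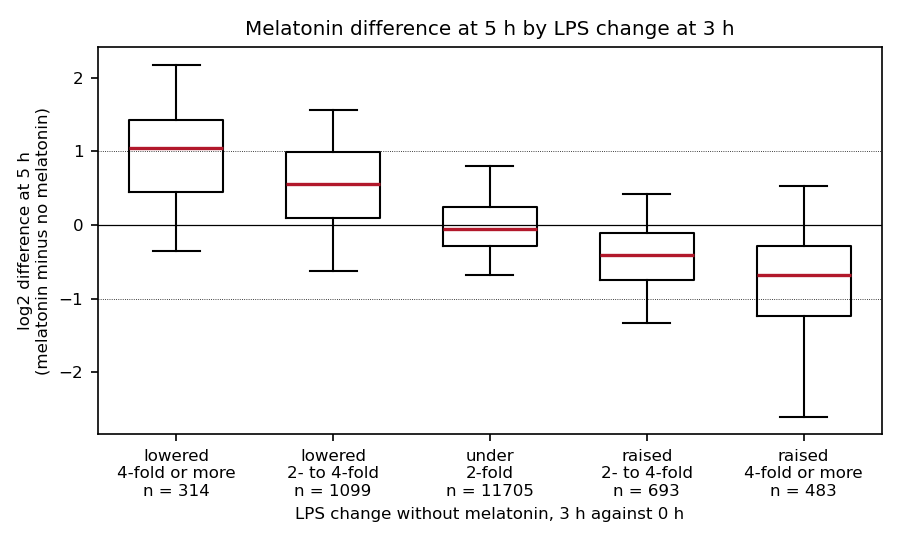
Log2 difference at 5 h of LPS (melatonin minus no melatonin, vertical axis) of genes grouped by their LPS change without melatonin at 3 h against 0 h, arrays that the difference does not use. Boxes span the quartiles with the median in red and whiskers the 5th to 95th percentile; the median is 1.04 for genes lowered at least 4-fold, -0.06 for genes under 2-fold and -0.69 for genes raised at least 4-fold.

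Labels of time were not uniform. The treatment fields of the melatonin samples titled 0, 1 and 3 h give 1, 3 and 5 h of LPS. That of the sample titled 5 h is empty. This bears on every comparison by time, while titles, descriptions and source names give the times used here. On the melatonin array titled 0 h, the 483 genes raised at least 4-fold by LPS at 3 h had a median level of -1.69. Without melatonin their median was -1.45 at 0 h and -0.11 at 1 h. For these genes the melatonin array titled 0 h thus lay nearer the array without LPS than the 1 h array. The labels of the later melatonin arrays were not tested. With the array titled 3 h in place of that titled 5 h, 1253 genes were at least 2-fold higher and 932 at least 2-fold lower. The interferon response list then had 27 of 36 members at least 2-fold lower (median -1.38), the cytokines 13 of 21 (-1.75) and the G2/M list 1 of 24 (-0.48).

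Some genes past 2-fold stood out on 1 array at 5 h. Of the 561 genes at least 2-fold lower, 141 (25.1%) had a level on the array without melatonin at 5 h at least 2-fold above all 7 other arrays, and of the 940 higher ones 210 (22.3%) had such a level on the melatonin array. These include Il6, Il1a, Lta and Fpr2, whose levels at 3 h without melatonin were also far above 0 h. Their melatonin differences at 3 h were -4.25, -3.28, -3.89 and -2.82, so for these genes the direction was not seen at 5 h only. The same counts also include genes with low levels on every other array. Tectb, an inner-ear matrix gene, read -0.11 at 5 h without melatonin and between -4.56 and -3.61 on the other arrays. Bsn, Mup17, Krt72, Htra1 and Olfr870 were at least 33.4-fold, 25.5-fold, 25.4-fold, 18.9-fold and 21.1-fold lower with melatonin, and all but Olfr870 were well above background on 1 of 8 arrays. Lca5l, Sidt1, Col14a1, Calr4 and Mustn1 were at least 15.9-fold, 14.1-fold, 13.6-fold, 12.4-fold and 10.6-fold higher, and each was well above background on at most 2 of 8 arrays.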

How the data were processed

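Gene expression was measured by 1-colour (Cy3) arrays of RAW264.7 RNA. Per the file headers, the deposited intensity values are background-subtracted signals that Agilent Feature Extraction 12.0.3.1 wrote for design 074809. How the authors made their deposited log2 table is not given in the sources used; its values correlated at 0.999 or more with the log2 of those signals on each array and served as an alternative, as did the deposited intensity of mean spot and local background with normexp. Flags of spots well above background, with a score of 0 or 1 per the file headers, set the filter. Probe coordinates are on mm9, per the file headers.

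Left out were outlier spots and the 3671 control spots among 62976. Replicate spots were averaged, and log2 signals set relative to the 75th percentile of each array. Symbols were updated through RefSeq. The probe with the highest mean over 8 arrays stood for a gene. A gene not well above background on 1 array was given at its bound, against the higher of its signal there and the lowest signal well above background. No spot was saturated. Precision is limited by the number of arrays.

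The software was limma 3.58.1 in R 4.3.3. The limma model had LPS time (4 levels), melatonin and a further melatonin term at 5 h, with an intensity trend, 2-sided moderated tests and Benjamini-Hochberg adjustment over genes that 2 or more of the 8 arrays flagged as well above background. It was tested on simulated arrays with independent noise and known changes added to the melatonin array at 5 h. Those arrays had no LPS course and no drift of the melatonin difference over time, so they do not show its error rate here. Members and gene lists were chosen with earlier results of these data known. Named genes are the 12 highest and 12 lowest differences of genes with a named symbol measured on both arrays, past 2-fold with normexp and in the deposited table too, the 5 largest bounds each way, the extremes of each list, a panel of LPS genes, leading limma genes and genes past 2-fold at all times or in opposite directions; further list members were named after their values were seen. Alternatives were background correction, normalization, filters, floor, probe choice, time label and leaving out arrays.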

Additional observations from a re-analysis of the deposited data

Results flagged for a closer look

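Cerkl, Neu3, Adamts14, Sema4b and Echdc2 had a melatonin difference at 5 h opposite in direction to that at another LPS time, each past 2-fold both ways with 1 array a side. Cerkl differed by -3.02 at 5 h, against 1.09 at 0 h and 1.33 at 1 h. Neu3 differed by 1.53 at 5 h and -1.91 at 3 h. Adamts14 differed by -1.12 at 5 h, at its bound, and 1.11 at 3 h. Sema4b differed by -2.01 at 5 h and 1.00 at 3 h. Echdc2 differed by -2.82 at 5 h and 1.24 at 3 h. In all, the difference was opposite past 2-fold for 5 genes at 0 h (all lower at 5 h), for 1 higher and 6 lower genes at 1 h, and for 1 higher and 3 lower genes at 3 h; these totals hold genes not named here. None of the 5 was called by the limma term for 5 h against the mean of 0, 1 and 3 h, with adjusted p = 0.492, 0.753, 0.834, 0.609 and 0.585 in that order. Without the arrays at 3 h, which leaves 1 residual degree of freedom, the term was -4.23 for Cerkl, -3.44 for Echdc2 and -2.03 for Sema4b. All 5 genes were picked on the same 5 h values, so these terms are no separate test of them. That setting drops the 3 h arrays, so it does not bear on the opposite differences of Echdc2 and Sema4b at 3 h. For Cerkl and Echdc2 the 5 h array without melatonin stood at least 2-fold above all 7 other arrays.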

How the results depend on the processing

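No paired analysis was possible because each condition has 1 array, so no replicate number pairs samples; the limma model already sets the arms against each other within each time. Counts at 5 h moved most with normexp (448 higher and 348 lower), with no filter on dim probes (2028 and 1386, where the median of all genes was 0.22) and with the array whose treatment field gives 5 h (932 lower). The other 5 alternatives gave 632 to 931 higher and 408 to 561 lower. Among named genes, 11 differences at 5 h changed sign under some alternative, 10 of them under 2-fold; the other, Adamts14, was 0.56 with the treatment-field array. The limma count over 0, 1 and 3 h, 1764 higher and 2383 lower, was 2167 and 1449 with quantile normalization and 2175 and 1466 in the deposited log2 table. The share of higher genes among its calls was 59.9% with quantile normalization and 59.7% in the deposited table, against 42.5%. It was 949 and 1385 with no filter, 1036 and 1305 with no intensity trend, 416 and 568 without the arrays at 0 h, and 0 and 0 without those at 1 h. The 5 h term called 520 genes without the arrays at 3 h and 0 under each of the other 8 alternatives. The cause was not tested. With 1 array a condition, no difference at 5 h has a replicate, and signals near background limit its size.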
